A study of Saccharomyces cerevisiae with 6 samples.

Results

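Protein synthesis in the cytosol of budding yeast, Saccharomyces cerevisiae, rests on initiation, elongation and termination factors and on the aminoacyl-tRNA synthetases that load tRNA with amino acids. The genes described here are 60 such factors and synthetases, chosen by name from the array annotation with 1 probe set each, the brightest over all arrays. Of these, 57 were measured among 5449 genes in all. TIF1, TEF1 and EFT1 had no probe set listed under their own names. Their twin copies TIF2, TEF2 and EFT2 were each read by a probe set of the kind with shared sequence, whose signal may include the twin.

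The mutant strain, WY317, carries histone H2B with the K111A substitution, alanine in place of lysine, and the strain it was set against, PY014, carries wild-type H2B. The labels give no further allele for either strain, and the same wild-type arrays are labelled as controls for another H2B mutant too. Both strains were harvested in mid-log growth on YPD, a rich medium with glucose, and biotin-labelled cRNA of each was read on 3 single-channel arrays per strain. The 3 samples of a strain carry numbers, but no label ties them to separate cultures, so p-values cover only the spread among these samples, and that may be technical.

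In initiation, eIF2 carries the initiator tRNA to the small ribosomal subunit, and eIF2B, its nucleotide exchange factor, recharges it with GTP. The kinase Gcn2, activated by uncharged tRNA, phosphorylates eIF2 and thereby slows eIF2B, which lowers general initiation and raises translation of the GCN4 mRNA. The eIF4F complex binds the cap and the mRNA, eIF3 and eIF1, eIF1A and eIF5 guide the search for the start codon, and eIF5B joins the subunits. In elongation eEF1A delivers charged tRNA, eEF2 moves the ribosome on, and eEF3 is a factor that fungi need in addition.

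On the log2 scale over all genes, correlations lay between 0.997 and 0.998 within a strain and between 0.993 and 0.996 across the strains. Intensities are on the authors' linear scale, and levels of different genes are not compared, since each comes from its own probe set. All 57 genes read above background on all 6 arrays, background being 3.7, the 99th percentile of the probe sets for another yeast species. The mRNA of the mutated histone gave no check of the labels, since a point substitution need not change it: HTB1 averaged 1204 ± 50.5 in K111A and 1280 ± 40.5 in wild type (SD, n = 3 each). The second H2B gene, HTB2, averaged 3.73 ± 0.25 in K111A and 3.9 ± 0.17 in wild type, near the background of 3.7 in both strains. The 17 ribosomal RNA control sets averaged 6.69 ± 0.09 in K111A and 6.43 ± 0.12 in wild type on the log2 scale (SD, n = 3 arrays each, exact permutation p = 0.1, two-sided, the smallest that 3 against 3 allow), and their part in the results below was not tested. Whole cultures were read, so a change in some of the cells and a smaller change in all of them cannot be told apart.

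Most of these genes did not pass the test between the strains, and those that did differed by little. With limma's moderated test, adjusted by Benjamini-Hochberg over all genes, 9 of the 57 passed the threshold of 0.05, of which 4 rose and 5 fell in K111A. That is 15.8% of them, against 14.5% of all genes (6.92% higher and 7.62% lower), so the share was close to the background. An unadjusted p under 0.05 was reached by 18 of the 57, or 31.6%, against 31.7% of all genes. Those that rose were GCN2, GCD6, YEF3 and VAS1, and those that fell were GCN3, GCD1, GCD11, RPG1 and FRS2. On the log2(intensity + 32) scale, the median log2 change of the 57 was -0.015, against -0.00048 for all genes, and the median size of the change, sign aside, was 0.046 against 0.065. Arrays of a strain varied by a median SD of 0.041 for these genes, against 0.05 for all genes, on the same log2 scale. The log2 changes ran between -0.20 for TEF2, which did not pass, and 0.24 for GCN2. Intensities of the strains did not overlap for 24 of the 57 genes, or 42.1%, 10 higher and 14 lower in K111A. Over all genes the share was 36.7%, with 18.2% higher and 18.6% lower.

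**Figure D1:**
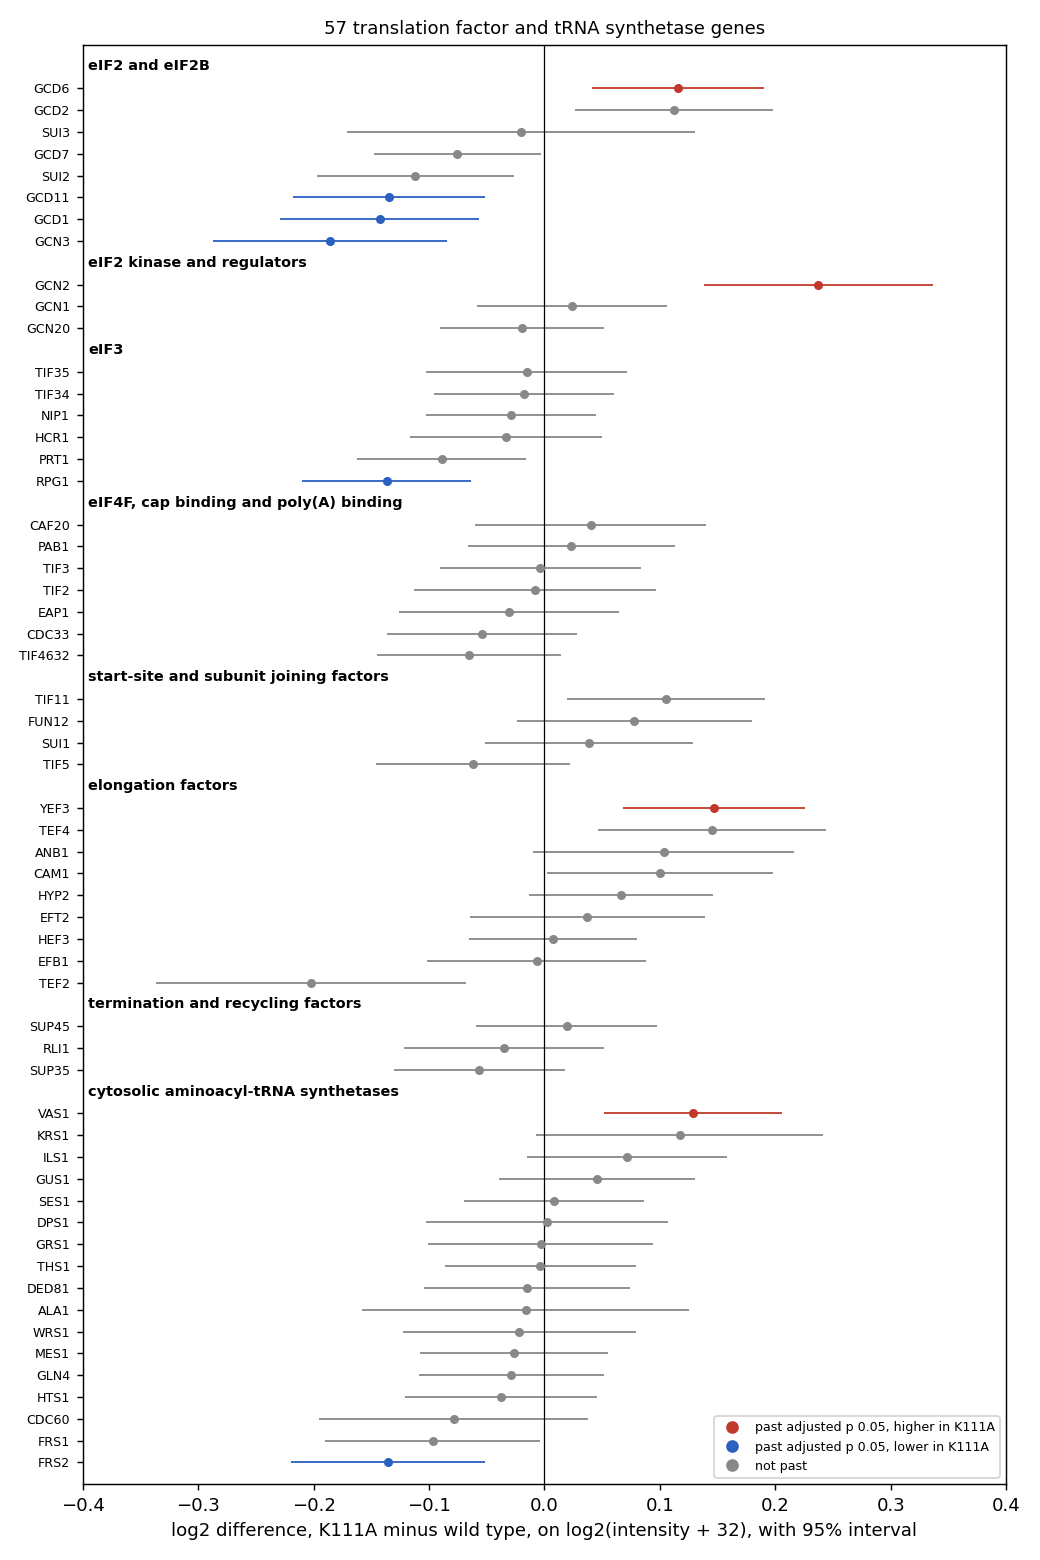
Log2 difference, K111A minus wild type, of each of the 57 measured genes on the log2(intensity + 32) scale, grouped by role. Points are estimates from 3 arrays per strain, bars 95% intervals, and coloured points passed the adjusted p of 0.05 in limma; 4 lie right of zero and 5 left.

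The clearest difference was in the kinase gene of the eIF2 pathway. GCN2 read 234, 220 and 217 in K111A, against 193, 175 and 187 in wild type. Every K111A array lay above every wild-type array. The means were 224 ± 9.32 and 185 ± 9.14 (SD, n = 3 each), a ratio of 1.21, with a log2 change of 0.24 ± 0.04 (SE, limma adjusted p = 0.0125). It was the only one of the 9 that passed whichever single array was left out, with adjusted p between 0.0215 and 0.0446. The genes of its activators on the ribosome did not pass. GCN1 averaged 521 ± 5.58 in K111A and 512 ± 18.3 in wild type, and GCN20 averaged 451 ± 2.60 in K111A and 457 ± 5.0 in wild type (SD, n = 3 each). GCN4, the transcription activator whose translation this pathway controls and which is not among the 57, read 1287 ± 42.1 in K111A and 1255 ± 39.1 in wild type, with a limma adjusted p of 0.576 for its mRNA level. Protein levels and phosphorylation were not measured.

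Genes of eIF2 and eIF2B moved in both directions. Of 8 measured, 3 fell and 1 rose, against 7.62% of all genes lower and 6.92% higher. An unadjusted p under 0.05 was found for 7 of the 8, against 31.7% of all genes. In eIF2B, the non-essential regulatory subunit gene GCN3 read 417, 403 and 398 in K111A, against 437, 475 and 487 in wild type, and its log2 change was -0.19 ± 0.04 (SE, limma adjusted p = 0.0286). GCD1, of the catalytic subcomplex, read 373, 397 and 365 in K111A, against 419, 419 and 423 in wild type, a log2 change of -0.14 ± 0.04 (adjusted p = 0.0395). Both sets of arrays were apart, and GCD1 varied little among the wild-type arrays. GCD6, the catalytic subunit gene and partner of GCD1 in that subcomplex, was higher instead. It read 357, 366 and 355 in K111A, against 334, 329 and 324 in wild type, with a log2 change of 0.12 ± 0.03 (adjusted p = 0.0469).

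The remaining eIF2B genes, both of the regulatory subcomplex, did not pass although their arrays did not overlap. GCD2 averaged 236 ± 7.25 in K111A and 216 ± 7.26 in wild type (limma adjusted p = 0.0797), and GCD7 averaged 290.8 ± 2.20 in K111A and 308 ± 4.69 in wild type (adjusted p = 0.144; SD, n = 3 each). Of eIF2 itself, GCD11, the GTP-binding gamma subunit gene, read 838, 809 and 789 in K111A, against 876, 891 and 916 in wild type. Its log2 change was -0.13 ± 0.04 (SE, limma adjusted p = 0.0423). SUI2, the alpha subunit that Gcn2 phosphorylates, averaged 845 ± 25.7 in K111A and 916 ± 23.8 in wild type (adjusted p = 0.0786). SUI3, the beta subunit, had the smallest difference of the 8, at 723 ± 28.9 in K111A and 736 ± 73.6 in wild type, where wild-type array 3 read 652 and the other two 767 and 789.

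**Figure D2:**
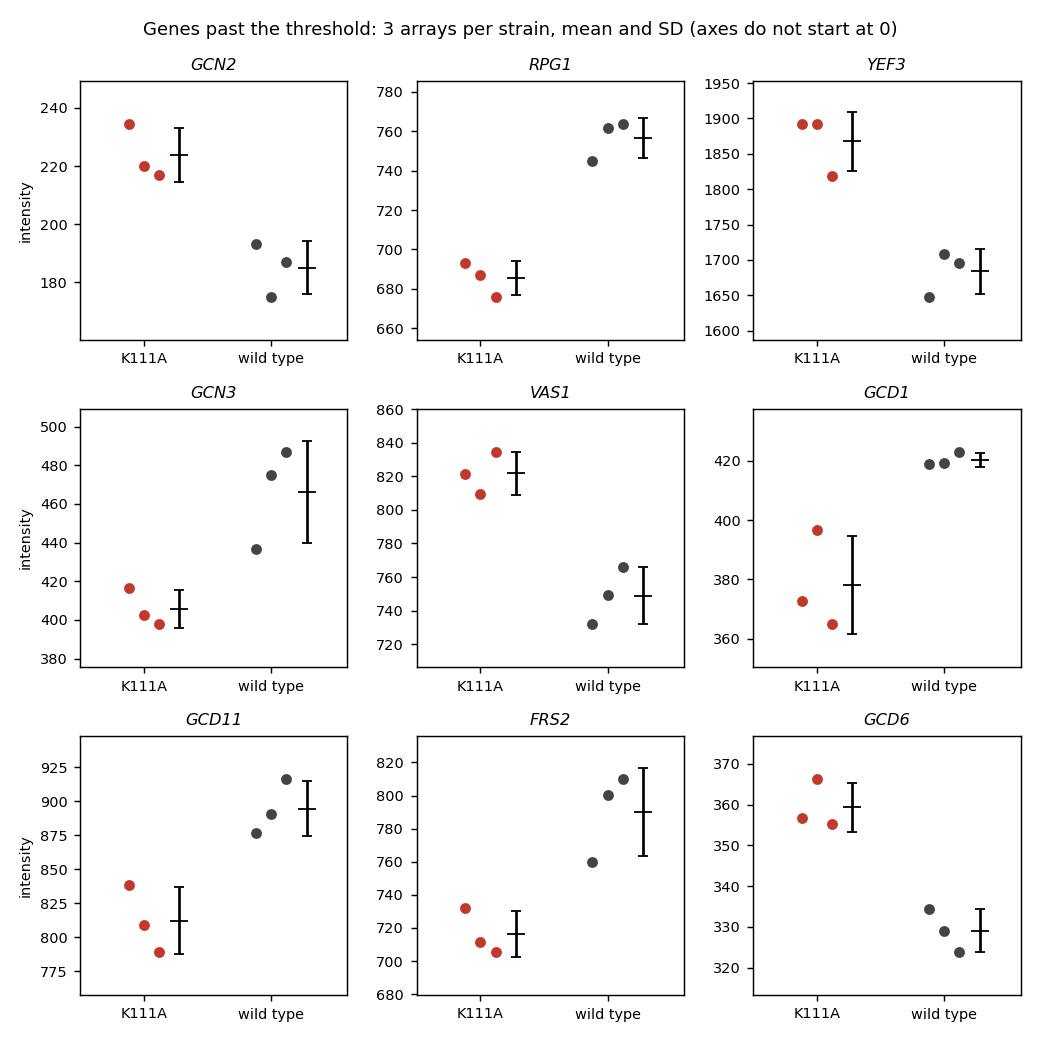
Intensity on each array for the 9 genes past the threshold, K111A left of wild type, with mean and SD of 3 arrays beside the points; the axes do not start at zero. The arrays of the strains do not overlap for any of the 9 genes, and GCN2 read 217 to 234 in K111A against 175 to 193 in wild type.

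All 6 genes of eIF3 had estimates below zero, as did 2734 of all 5449 genes. Only RPG1, the largest core subunit, passed, or 16.7% of the 6, against 14.5% of all genes. RPG1 read 693, 687 and 676 in K111A, against 745, 761 and 764 in wild type. The arrays were well apart and tight within each strain, and the log2 change was -0.14 ± 0.03 (SE, limma adjusted p = 0.0272). PRT1, the core subunit eIF3b, averaged 855 ± 14.0 in K111A and 912 ± 9.26 in wild type, without overlap (adjusted p = 0.0971). The other four, NIP1, TIF34, TIF35 and HCR1, had log2 changes between -0.033 and -0.015, and their arrays overlapped. The smallest was that of TIF35, the subunit eIF3g, at 862 ± 27.0 in K111A and 871 ± 24.9 in wild type (SD, n = 3 each), whose sign turned without K111A array 3 or wild-type array 3. Over the eIF3 genes the log2 changes had a median of -0.031.

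None of the 7 measured genes that bind the cap, the mRNA or the poly(A) tail passed limma's adjusted threshold, against 14.5% of all genes. Of the 7, 0 had an unadjusted p under 0.05 in limma, against 31.7% of all genes. TIF4632, one of the scaffold proteins eIF4G, had the largest estimate, at 252 ± 4.85 in K111A and 265 ± 7.55 in wild type (limma adjusted p = 0.24). It was the only gene of the 7 whose arrays did not overlap, or 14.3%, against 36.7% of all genes. CDC33, the cap-binding protein eIF4E, averaged 1178 ± 26.6 in K111A and 1224 ± 32.8 in wild type. The eIF4A helicase signal under TIF2 averaged 1527 ± 34.8 in K111A and 1538 ± 91.9 in wild type, and TIF1 cannot be read apart from it. TIF3, or eIF4B, a stimulator of that helicase, had the smallest difference, at 714 ± 18.5 in K111A and 715 ± 24.3 in wild type. The 95% intervals of the 7 log2 changes lay between -0.15 and 0.14, or 0.904-fold to 1.10-fold. They also cover CAF20 and EAP1, which compete with eIF4G for eIF4E, and PAB1, the poly(A)-binding protein.

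The 4 factors of start-codon choice and subunit joining did not pass limma's adjusted threshold either. Of them 1 had an unadjusted p under 0.05, or 25%, against 31.7% of all genes. TIF11, or eIF1A, had the largest difference, with 1015, 1008 and 1006 in K111A, against 912, 981 and 919 in wild type. These arrays did not overlap, the K111A values lay within a narrow band, and the log2 change was 0.11 ± 0.04 (SE, limma adjusted p = 0.0949). Without wild-type array 2 it passed, with an adjusted p of 0.0495, but with any other array left out the adjusted p lay between 0.188 and 0.214. FUN12, or eIF5B, averaged 998 ± 2.02 in K111A and 945 ± 56.1 in wild type, and TIF5, which triggers GTP hydrolysis on eIF2, 622 ± 4.35 in K111A and 651 ± 25 in wild type. The arrays of FUN12 and TIF5 did not overlap either, so the class had 3 such genes, 2 higher and 1 lower in K111A. That is 75%, against 36.7% of all genes, but 4 genes are too few to set against that share. SUI1, or eIF1, differed least, at 1102.5 ± 11.0 in K111A and 1073 ± 49.2 in wild type (SD, n = 3 each).

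Of 9 measured elongation factor genes, YEF3 rose and none fell, or 11.1% past the threshold, against 14.5% of all genes. An unadjusted p under 0.05 was found for 4 of the 9, or 44.4%, against 31.7% of all genes. The strains did not overlap for 5 of the 9, or 55.6%, against 36.7% of all genes. YEF3 encodes eEF3 and read 1892, 1892 and 1819 in K111A, against 1648, 1708 and 1695 in wild type, without overlap. Its log2 change was 0.15 ± 0.03 (SE, limma adjusted p = 0.0272). With quantile normalization between arrays the adjusted p was 0.0583. The value of 1891.8 on K111A array 2 was the highest of all probe sets on that array. Whether bright readings are compressed was not tested, for YEF3 or for other bright genes such as TIF2, EFT2, TEF2, HYP2 and EFB1. HEF3, its paralogue, read 25.2 to 26.2 in K111A and 24.8 to 26.3 in wild type, an overlap of the whole range.

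The largest estimated fall among the 57 genes was that of TEF2, which with TEF1 encodes identical eEF1A protein. TEF2 read 1301, 1249 and 1107 in K111A, against 1376, 1472 and 1367 in wild type. The K111A arrays were all lower but spread widely, and the log2 change of -0.20 ± 0.06 (SE) had a limma adjusted p of 0.0531, just outside the threshold. It passed with quantile normalization (adjusted p = 0.018), with a variance trend (0.0448) and over genes above background only (0.048). With any single array left out it did not pass, with adjusted p between 0.0519 and 0.136.

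None of the subunits of eEF1B, the exchange factor of eEF1A, passed. The gamma subunit gene TEF4 read 1441, 1401 and 1362 in K111A, against 1254, 1331 and 1208 in wild type, with no overlap. Its log2 change was 0.15 ± 0.04 (SE, limma adjusted p = 0.0552), and it passed with quantile normalization (0.0298), with a variance trend (0.048), with a pseudocount of 64 (0.0474) and without wild-type array 2 (0.0374). CAM1, the paralogue of TEF4, averaged 569 ± 29.3 in K111A and 528 ± 14.0 in wild type (adjusted p = 0.15). The alpha subunit gene EFB1 had the smallest difference of the elongation factors, at 1441 ± 54.5 in K111A and 1448 ± 53.8 in wild type, and the sign of that estimate turned without K111A array 2, K111A array 3 or wild-type array 2.

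The translocase signal under EFT2, which with EFT1 encodes eEF2, averaged 1542 ± 75.5 in K111A and 1502 ± 53.3 in wild type. The paralogues of eIF5A, HYP2, used in air, and ANB1, used when oxygen is low, did not pass. HYP2 averaged 1504 ± 38.7 in K111A and 1435 ± 25.8 in wild type, without overlap, and ANB1 58.2 ± 4.01 in K111A and 52.0 ± 4.58 in wild type, with overlap (SD, n = 3 each; limma adjusted p = 0.234 and 0.194). Of the 9 elongation genes 7 had estimates above zero and 2 below, against 2715 above and 2734 below over all genes. The median log2 change of the 9 was 0.066.

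The 3 genes of termination and recycling did not pass limma's adjusted threshold, and 0 had an unadjusted p under 0.05. Over all genes the shares were 14.5% and 31.7%, and 3 genes are too few to set against them. SUP35, the release factor eRF3, differed most, at 650.2 ± 11.7 in K111A and 677 ± 7.17 in wild type. It was the only gene of the 3 whose arrays did not overlap, or 33.3%, against 36.7% of all genes. SUP45, the release factor eRF1 that recognises stop codons, differed least, at 926 ± 20.9 in K111A and 913 ± 16.5 in wild type. RLI1, the iron-sulfur ATPase that splits the ribosome after termination, averaged 549 ± 13.1 in K111A and 563 ± 20.4 in wild type (SD, n = 3 each). Their 95% intervals lay between 0.914-fold and 1.07-fold.

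Of 17 cytosolic aminoacyl-tRNA synthetase genes, VAS1 rose and FRS2 fell, and 15 did not pass. Those that passed were 11.8% of the 17, against 14.5% of all genes. VAS1, which serves valine tRNA in both cytosol and mitochondria, read 821, 809 and 835 in K111A, against 732, 749 and 766 in wild type. Its arrays were apart, with a log2 change of 0.13 ± 0.03 (SE, limma adjusted p = 0.0381). FRS2, the alpha subunit for phenylalanine, read 732, 711 and 706 in K111A, against 760, 800.2 and 810 in wild type, a log2 change of -0.14 ± 0.04 (adjusted p = 0.0425). The beta subunit FRS1 lay on the same side without passing, at 911 ± 35.2 in K111A and 976 ± 31.6 in wild type (adjusted p = 0.145), also without overlap. These were the only 3 of the 17 synthetase genes whose arrays did not overlap, or 17.6%, against 36.7% of all genes.

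For 14 synthetase genes the values of K111A and wild type overlapped. KRS1, for lysine, averaged 1197 ± 29.7 in K111A and 1103 ± 87.4 in wild type, where array 1 read 1014 and array 2 read 1188. DPS1, for aspartate, had the smallest difference, with 947 ± 60.1 in K111A and 944 ± 12.8 in wild type (SD, n = 3 each). The 95% intervals of the 15 that did not pass lay between 0.874-fold and 1.18-fold, and the median log2 change of the 17 was -0.015. ALA1 had 1057 on wild-type array 2, against 911 and 874 on the others, and its interval was the widest of the synthetases.

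Class medians on each array describe the classes without regard to single calls. For each gene the deviation from its own mean over the 6 arrays was taken, and then the median over the class. For eIF2 and eIF2B it was -0.034, -0.017 and -0.077 on K111A arrays, against 0.041, 0.06 and 0.037 on wild-type arrays. For eIF3 it was -0.029, -0.019 and -0.04 on K111A arrays, against 0.018, 0.039 and 0.042 on wild-type arrays. Both classes thus lay lower on every K111A array, although GCD6 and GCD2 within the first were higher. Start-site and subunit joining factors lay higher on every K111A array, although TIF5 among them was lower. Their medians were 0.023, 0.027 and 0.038 on K111A arrays, against -0.056, 0.0071 and -0.031 on wild-type arrays. For elongation factors the medians were 0.075, -0.0036 and 0.011 on K111A arrays, against -0.04, -0.0048 and -0.042 on wild-type arrays, so K111A array 2 and wild-type array 2 almost met. For the synthetases they were 0.03, 0.0005 and -0.044 on K111A arrays, against -0.0081, 0.011 and 0.00054 on wild-type arrays, and overlapped. These medians are descriptions, with no test.

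**Figure D3:**
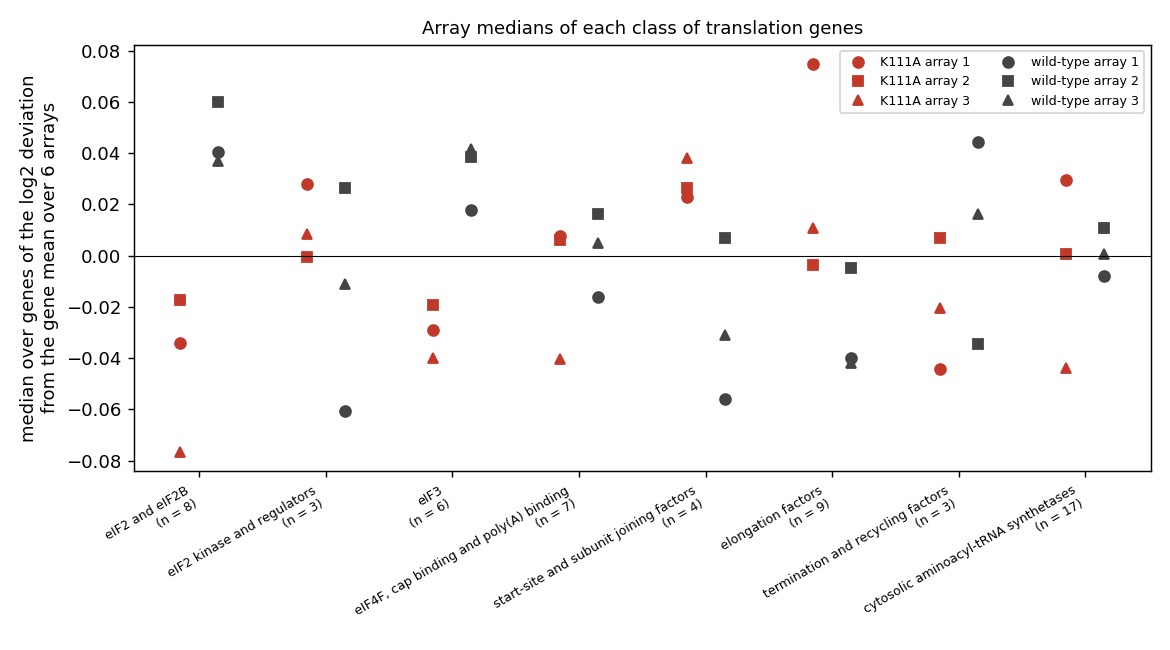
Median over the genes of each class of the log2 deviation from the gene's mean over all arrays, 1 symbol per array, K111A left of wild type. The K111A arrays lie below the wild-type arrays for eIF2 with eIF2B and for eIF3. They lie above them for start-site and subunit joining factors and, narrowly, for elongation factors. The strains overlap for the other classes, among them the synthetases.

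Other translation genes passed the threshold about as often as all genes did. Of 73 measured genes in 5 further lists, 10 fell and 1 rose, together 15.1% against 14.5% of all genes. The falls were 13.7% against 7.62% of all genes and the rise 1.37% against 6.92%, and these differences in share were not tested. Among 29 other cytosolic factors and regulators, 5 fell. DED1, an RNA helicase of start-site scanning, read 276, 268 and 289 in K111A, against 368, 329 and 335 in wild type, with a log2 change of -0.28 ± 0.05 (SE, limma adjusted p = 0.0089). DBP1, a close relative of DED1, read 16.6, 15 and 15.9 in K111A, against 22.3, 22.1 and 21.4 in wild type (adjusted p = 0.013). DED1 passed whichever array was left out, and DBP1 in all cases but that of K111A array 3 (0.0526). GCD10, of a tRNA methyltransferase, averaged 394 ± 7.86 in K111A and 451 ± 21.0 in wild type. PUB1, an RNA-binding protein, averaged 605 ± 4.63 in K111A and 670.5 ± 31.7 in wild type. The fifth, named after its value was seen, was GIS2.

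Enzymes that modify elongation factors and eIF5A included 4 falls and no rise among 15 measured, or 26.7% lower, against 7.62% of all genes lower and 6.92% higher. EFM3, a methyltransferase of eEF2, read 130, 133 and 126 in K111A, against 155, 164 and 161 in wild type, with a log2 change of -0.25 ± 0.04 (SE, limma adjusted p = 0.0056). EFM5, a methyltransferase of eEF1A, read 261, 278 and 276 in K111A, against 320, 336 and 319 in wild type, a log2 change of -0.23 ± 0.04 (adjusted p = 0.00814). Both passed whichever array was left out. DPH2, of the synthesis of diphthamide on eEF2, averaged 346 ± 7.86 in K111A and 396 ± 28.2 in wild type. JJJ3, a further gene of that synthesis, averaged 77.5 ± 2.61 in K111A and 89.3 ± 3.61 in wild type (adjusted p = 0.0435 and 0.033). The hypusine enzymes of eIF5A, DYS1 and LIA1, did not pass, with log2 changes of -0.01 and -0.10.

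In mitochondria, MRF1, a release factor, fell and GUF1, a ribosome-bound GTPase, rose, of 11 translation factors measured. Together they were 18.2% of the 11, near the 14.5% of all genes (6.92% higher and 7.62% lower). MRF1 averaged 93.6 ± 1.10 in K111A and 109 ± 5.57 in wild type, and GUF1 104 ± 4.37 in K111A and 91.1 ± 2.23 in wild type (SD, n = 3 each; limma adjusted p = 0.0236 and 0.0374). None of 14 mitochondrial synthetase genes passed limma's adjusted threshold, and 4 had an unadjusted p under 0.05, or 28.6%, near the 31.7% of all genes. None of the 4 further cytosolic synthetase and cofactor genes passed it, and 2 had an unadjusted p under 0.05, too few genes to set against that share.

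**Figure D4:**
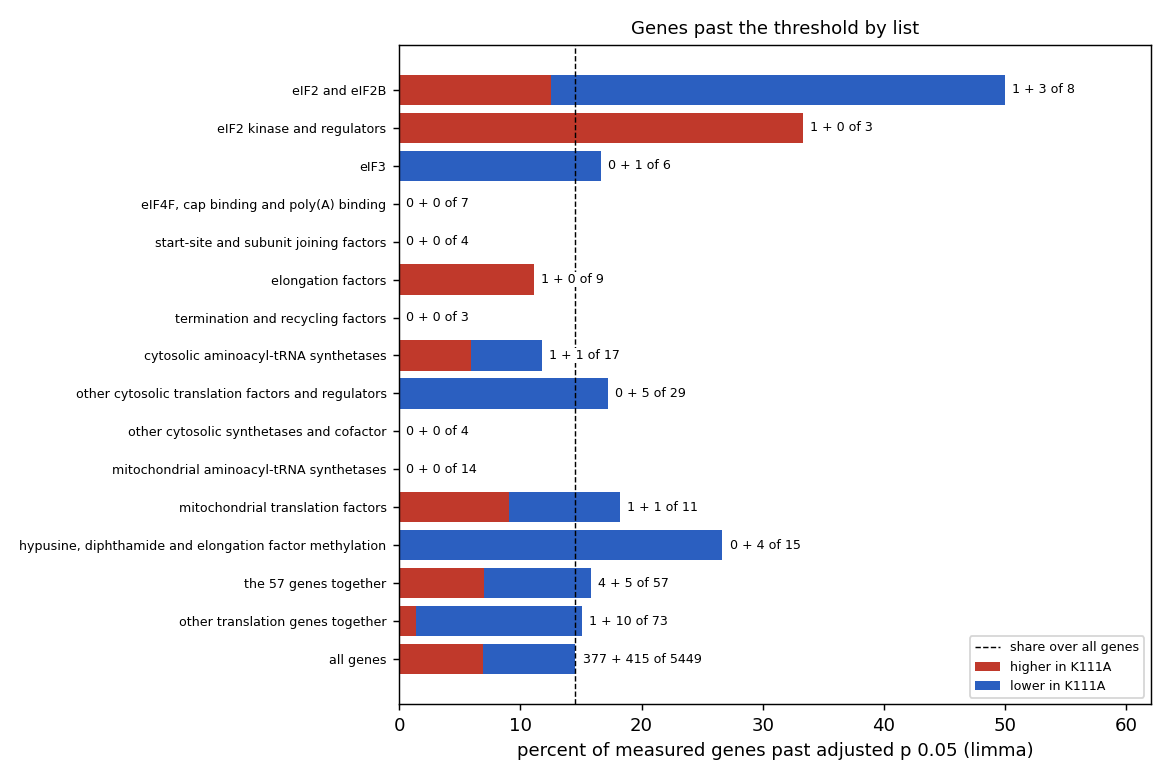
Percent of measured genes past the adjusted p of 0.05, red for higher and blue for lower in K111A, with counts beside the bars; the dashed line is the 14.5% over all genes. The 57 genes together stand at 15.8%, and 1 + 3 of 8 genes of eIF2 and eIF2B passed.

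The calls of 8 of the 9 genes were narrow. GCD11 and GCD6 did not pass once any single array was left out. GCD1 passed only without K111A array 2 (adjusted p = 0.0373), and GCN3, RPG1 and FRS2 only without wild-type array 1 (0.0198, 0.0489 and 0.043). VAS1 passed only without wild-type array 3 (0.0449), and YEF3 only without wild-type array 2 (0.0461) or 3 (0.0467). The highest values these 8 reached lay between 0.0844, for YEF3, and 0.145, for GCD11. Each such fit has 5 arrays in place of 6. Of the other translation genes, DPH2 and GIS2 passed in no such fit, and GCD10, PUB1, MRF1, GUF1 and JJJ3 in 1 each.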

How the data were processed

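The deposited table holds intensity values that the authors had summarised per probe set on a linear scale. The software used is not given in the sources used here, but the mean over probe sets was 125.05 on all 6 arrays once 2% were trimmed at either end, so they had been scaled alike. Of 10928 probe sets, 5498 were matched through the array annotation to a gene of the RefSeq R64 table, giving 5449 genes, each by its brightest probe set. Sets for controls, another organism or no listed gene were left out of the tests.

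Values were used as log2(intensity + 32), which understates changes of dim genes, and ratios are of mean intensities. The strain difference, K111A minus wild type, was estimated in limma 3.58.1 (lmFit, eBayes; R 4.3.3) as a two-sided test with 8.91 degrees of freedom. The small number of arrays limits the precision. The procedure was tested on simulated data. Same-numbered arrays of the strains did not deviate together (correlations of -0.234, -0.0584 and -0.169), so no block was used.

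The genes and lists were chosen with earlier results of these data known. The text names every gene past the threshold, both copies of 6 paralogue pairs among the 60 genes (TIF1 and TIF2, TEF1 and TEF2, EFT1 and EFT2, YEF3 and HEF3, HYP2 and ANB1, TEF4 and CAM1), the largest and smallest change of each class, GCN2, GCN4 and up to 4 passing genes of each further list. Genes named beyond that to fill out a class or complex were named with their values seen. Alternatives covered scaling, pseudocount, dim genes, replicate block, variance prior, array weights, probe set choice, threshold and single arrays left out. Figures were drawn with matplotlib 3.10.9.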

Additional observations from a re-analysis of the deposited data

How the results depend on the processing

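Counts moved with the settings more than directions did. The count of all genes past the threshold, 792, was 489 with a pseudocount of 1, 346 with the replicate number as a block, 159 at an adjusted p under 0.01, 1308 at 0.1, and 213 to 559 with 1 array left out. Of the 57 genes, 9 passed. This was 1 (a rise) with a pseudocount of 1, 4 (2 rises and 2 falls) with a pseudocount of 16, 1 (a rise) with the replicate block, 0 at 0.01 (0 rises and 0 falls), where 159 of all genes passed, and 15 (7 rises and 8 falls) at 0.1. With 1 array left out it was 1 to 4, with 1 to 4 rises and 0 to 3 falls. With array medians set equal the falls were 3 in place of 5. A stricter threshold lowers counts by construction, and for the other settings the cause was not tested. With an array left out genes could also gain the call, as TIF11 and TEF4 did without wild-type array 2. No label says that the numbers pair the samples, and whether losses under the block reflect weaker effects was not tested. No array of either strain correlated best with the array of its own number. The median log2 change of the cap and poly(A) genes was -0.041 without wild-type array 3, in place of -0.008, and -0.041 to 0.002 over the arrays left out. No gene past the threshold turned its sign. Of 969 values of single genes, 861 kept sign and call, 67 lost the call, 8 gained it and 33 turned. All that turned were within 0.037 of zero as reported. With quantile normalization GCN20 stood at 0.006, TIF3 at 0.010 and DPS1 at -0.012, and with array weights DPS1 at -0.002. With 1 array left out the log2 change ran from -0.102 to 0.030 for SUI3, -0.001 to 0.048 for GCN1, -0.035 to 0.008 for TIF35, -0.041 to 0.039 for TIF2, -0.028 to 0.019 for TIF3, -0.004 to 0.055 for PAB1, -0.037 to 0.022 for EFB1, -0.001 to 0.065 for EFT2, -0.002 to 0.017 for HEF3, -0.070 to 0.063 for ALA1, -0.040 to 0.009 for DED81, -0.047 to 0.034 for DPS1, -0.043 to 0.018 for GRS1, -0.010 to 0.020 for SES1, -0.027 to 0.023 for THS1 and -0.050 to 0.023 for WRS1. GCN20 did not turn with any array left out (-0.024 to -0.011).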

Other observations

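Over the 57 genes the log2 change, K111A minus wild type, had a Spearman rho of 0.109 with gene length and 0.234 with mean intensity, against 0.0904 and -0.0156 over all 5449 genes. These are descriptions across genes, which share the same 6 arrays and are not independent. Ranks by intensity are of probe set readings and not of mRNA levels, since each gene has its own probe set.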
